A study of Homo sapiens with 24 samples.

Results

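A set of 377 accessible regions of the T47D genome was already open in hormone-starved cells and gained accessibility within 1 h of estradiol, and it is followed here into complete medium and under 3 estrogen receptor antagonists. These regions were chosen by a rule on the measured counts, from 189403 peaks in all (0.199%): a mean of at least 3 CPM (counts scaled to a common library total of 10 to the power 6) in starved vehicle cells, a log2 ratio of estradiol to vehicle mean of at least 0.8 with 0.5 CPM added to both, and all 4 estradiol libraries above all 4 vehicle libraries. T47D is an established luminal breast cancer cell line that carries the estrogen and progesterone receptors. Accessibility was read by ATAC-seq (Tn5 transposase cuts open chromatin and tags the ends) in 6 groups of 4 libraries, 24 in all. Cells kept 3 days in phenol red-free medium with charcoal-stripped serum (starved) received 1 nM estradiol or 0.1% DMSO, the vehicle, for 1 h. Cells kept 1 day in complete medium, with ordinary serum, received 100 nM fulvestrant, 100 nM raloxifene, 100 nM tamoxifen or 0.1% DMSO for 1 h. No label says whether the replicates of a group were separate cultures, so the spread and the tests may cover technical variation only.

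Estrogen receptor alpha is a nuclear receptor that, once it has bound estradiol, sits on DNA at estrogen response elements and recruits coactivators and chromatin remodellers. In luminal breast cells many of its sites are kept accessible beforehand by the pioneer factors FOXA1 and GATA3. Fulvestrant blocks the receptor and leads to its degradation, whereas raloxifene and tamoxifen are selective modulators that occupy the same ligand pocket and recruit corepressors in breast cells. Charcoal removes steroids from serum, and phenol red is a weak estrogen, so starved medium is poor in estrogen.

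Sequence was at hand for the few chosen regions at promoters. Of the 354 regions on chromosomes for which transcription starts were used here, 10 (2.82%) overlapped a RefSeq promoter window (250 bases before to 50 bases after a start), against 16.2% of the other peaks open in starved vehicle. They touched 13 windows of 11 genes. The stretches below are the bases shared by a peak and a window on GRCh38.p14, on the gene's strand and 5′ to 3′. They are shown because they hold the letters that could be searched. For coding genes only bases before the start are given, and capitals mark motif matches.
THSD4, chr15:71096644-71096893, plus strand: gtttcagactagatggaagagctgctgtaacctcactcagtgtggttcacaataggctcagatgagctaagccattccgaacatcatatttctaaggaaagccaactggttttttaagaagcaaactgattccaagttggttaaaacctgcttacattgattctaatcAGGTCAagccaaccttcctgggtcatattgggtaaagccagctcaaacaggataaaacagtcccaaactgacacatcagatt
LINC02130, chr16:14370306-14370516, minus strand: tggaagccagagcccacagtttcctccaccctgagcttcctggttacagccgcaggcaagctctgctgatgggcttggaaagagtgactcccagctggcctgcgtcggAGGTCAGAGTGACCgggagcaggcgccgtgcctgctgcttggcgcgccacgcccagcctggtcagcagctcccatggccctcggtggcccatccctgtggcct
LOC105371934 inside RARA, chr17:40322475-40322630, minus strand: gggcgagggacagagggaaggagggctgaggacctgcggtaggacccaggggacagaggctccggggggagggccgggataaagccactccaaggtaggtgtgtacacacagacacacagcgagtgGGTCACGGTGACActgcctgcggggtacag
LOC105378275, chr10:43778696-43778906, plus strand: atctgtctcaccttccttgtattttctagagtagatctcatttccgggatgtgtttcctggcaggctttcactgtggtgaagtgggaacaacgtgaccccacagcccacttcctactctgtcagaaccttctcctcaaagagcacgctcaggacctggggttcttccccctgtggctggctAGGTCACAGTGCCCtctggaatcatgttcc
LINC01016, chr6:33896920-33897157, minus strand: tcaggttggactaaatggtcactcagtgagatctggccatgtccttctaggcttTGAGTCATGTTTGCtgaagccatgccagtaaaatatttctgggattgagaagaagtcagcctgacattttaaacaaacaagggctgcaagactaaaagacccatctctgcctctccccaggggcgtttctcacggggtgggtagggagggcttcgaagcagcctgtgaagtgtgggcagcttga
SERPINA1, chr14:94390730-94390885, minus strand: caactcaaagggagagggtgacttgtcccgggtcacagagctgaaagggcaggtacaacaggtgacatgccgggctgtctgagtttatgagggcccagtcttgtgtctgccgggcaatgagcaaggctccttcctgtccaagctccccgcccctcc

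Windows were searched on both strands for the estrogen response element GGTCANNNTGACC, its shorter arm AGGTCA, the forkhead letters TGTTTAC and TGTTTGC, the GATA letters AGATAA and the AP-1 letters TGANTCA. The arm overlaps the full element, as in LINC02130, so those matches are not separate. LINC02130, a long non-coding RNA gene, held the full element, which 0.0575% of 34796 distinct windows hold. With up to 1 mismatch, 4 of the 11 genes held it (LINC02130, LOC105371934, LOC105378275 and LINC02658), against 0.816% of windows. The LOC105378275 and LINC02658 windows face each other and share the same bases. The arm was found for 6 genes, among them THSD4, and in 13.8% of windows. LINC01016 held AP-1 letters directly followed by TGTTTGC, letters found in 7.73% and 3.88% of windows. No match lies in the SERPINA1 stretch. TGTTTAC (3.42% of windows) and AGATAA (10.4%) each matched 1 gene, LOC124901254 and THSD4, outside the stretches printed. A match describes letters and shows no binding.

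At the THSD4 promoter, CPM was 21.97, 21.7, 10.7 and 17.3 in starved vehicle and 35.6, 39.4, 33.6 and 33.3 with estradiol (replicates 1 to 4). In complete medium it was 34.6, 35.3, 36.4 and 35.7 with vehicle and 32.1, 30.98, 21.3 and 4.60 with fulvestrant. The 4 fulvestrant libraries lay below the 4 vehicle libraries, with replicates 3 and 4 far lower than replicates 1 and 2. In the shallow fulvestrant replicate 4, 1 count is worth 2.30 CPM. At LINC02130 the values were 33.3, 28.2, 34.7 and 28.7 with vehicle and 27.4, 27.2, 22.4 and 11.5 with fulvestrant, again with no overlap. The LOC105378275 region differed: its means were 4.69 ± 1.39 in starved vehicle, 9.71 ± 0.598 with estradiol and 4.54 ± 1.45 CPM (SD, n = 4) in complete vehicle, so the complete medium level was near the starved one. SERPINA1, which encodes alpha-1 antitrypsin, stood at 8.94 ± 2.01, 16.9 ± 4.31 and 18.7 ± 2.01 CPM in the same order.

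The regions were open before treatment but modestly so. The median of their starved vehicle means was 5.46 CPM (quartiles 3.94 and 8.73), against 7.15 CPM for the 71073 other peaks that met the same minimum. In 253 regions each of the 4 starved vehicle libraries reached 3 CPM, and 70 (18.6%) had a mean of at least 10 CPM, against 36.6% of the other open peaks. The median region had 13 counts in the shallowest starved library and 47 to 62 in the others. The gain with estradiol, the value that chose the regions, had a median log2 ratio of 1.12 (2.17-fold) and ran from 0.80 to 2.59. It reached 1 in 232 regions and 2 in 11. A further 1461 peaks had the same ratio and separation but lay below 3 CPM.

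Among the most open regions before treatment, a peak inside MYOF, a membrane repair gene, had 39.8, 32.7, 30.1 and 37.3 CPM in starved vehicle and 61.4, 62.2, 66.7 and 67.02 with estradiol. A peak inside GSE1, a chromatin-associated coiled-coil gene, went from 29.6, 29.4, 29.7 and 31.05 to 95.9, 89.5, 111 and 119.5. The peak inside RARA, the retinoic acid receptor alpha gene, went from 27.5, 23.1, 39.6 and 32.3 to 63.1, 64.8, 78.6 and 76.2. The largest ratio, 2.59, belonged to a peak inside ZMIZ1, a coregulator gene, at chr10:79128630-79128949 (hg38, ends as deposited), with 5.55, 4.17, 7.43 and 5.998 in starved vehicle and 32.1, 34.7, 39.7 and 43.1 with estradiol. These gains describe the choice, with no test.

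At the lower edge of the rule, starved vehicle means just inside were 3.01, 3.01 and 3.02 CPM, at peaks in MYB, in PREX1 and near LRIG1. Just outside they were 2.98, 2.97 and 2.96 CPM, in SNX24 and near HSPA13 and ADM. Log2 ratios just inside were 0.8001, 0.8014 and 0.8064, near KIF4B, in POC1B and near NRIP1, and just outside 0.7993, 0.7991 and 0.7984. Of 396 open peaks past the ratio, 19 failed because libraries overlapped.

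Most regions lay far from transcription starts. Only 5 (1.41%) of the 354 lay within 1 kb of a transcription start, against 18.1% of the other open peaks, and 83.9% lay over 10 kb away, against 67.0%. Inside a protein-coding gene lay 47.2%, much as for all tested peaks (48.3%). The median width was 253 bp, against 237 bp for the other open peaks. Nearest protein-coding genes numbered 316, of which 48 were nearest to at least 2 regions. TRPC6, a calcium channel gene beside PGR, was nearest to 7 and GREB1 to 5. With gaps of up to 10 kb, 54 regions formed 25 runs. The densest run held 4 regions over 13.03 kb inside GREB1.

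By the sum of counts, the regions took 0.331%, 0.326%, 0.313% and 0.336% of all open-peak counts in the 4 starved vehicle libraries, and 0.729%, 0.775%, 0.815% and 0.809% with estradiol. In complete vehicle they took 0.915%, 0.906%, 0.854% and 0.865%. The complete vehicle libraries were thus all above the estradiol libraries, which were all above starved vehicle. Raloxifene libraries gave 0.914%, 0.911%, 0.855% and 0.836%, and tamoxifen libraries 0.884%, 0.912%, 0.770% and 0.766%. Fulvestrant libraries gave 0.852%, 0.851%, 0.667% and 0.597%, all below the 4 vehicle libraries, though replicates 1 and 2 by less than the counting intervals of the lowest vehicle library. As a share of all counts, fulvestrant replicate 2 (0.727%) lay above vehicle replicates 3 and 4 (0.725% and 0.724%). For the open-peak share of fulvestrant replicate 4 the 95% Wilson interval was 0.570% to 0.626%. Those of the other libraries reached 0.00364 to 0.00780 percentage points to each side. These intervals cover counting error only. These shares carry no test, since the regions were chosen on the data.

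**Figure D1:**
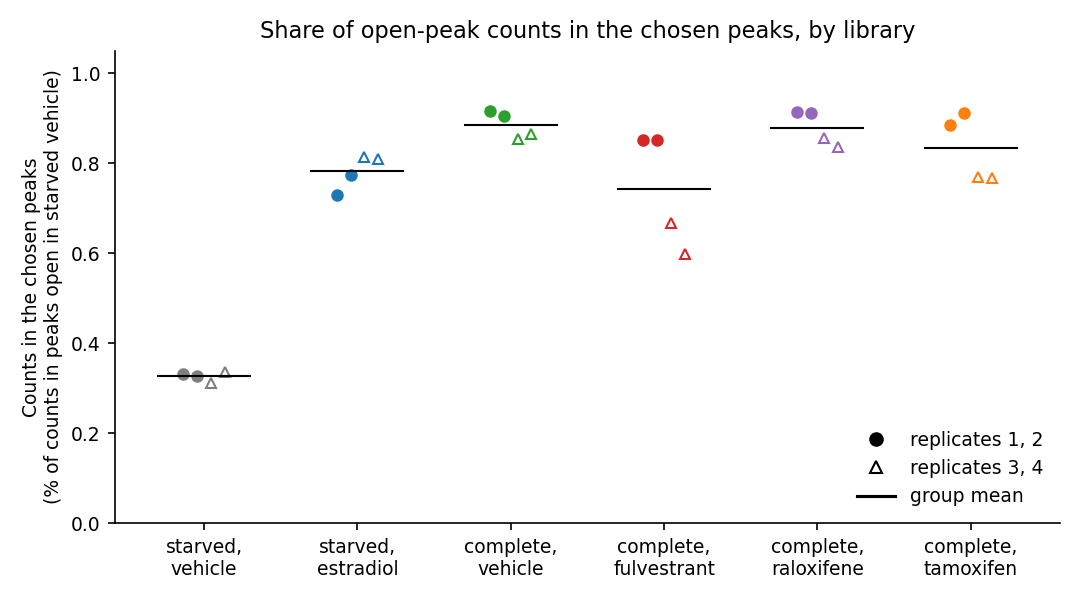
Counts in the chosen regions as a percentage of counts in all peaks open in starved vehicle, for each of the 24 libraries, with filled circles for replicates 1 and 2, open triangles for replicates 3 and 4 and a line at each group mean. Starved vehicle lies between 0.313% and 0.336%, and fulvestrant and tamoxifen replicates 3 and 4 lie below their replicates 1 and 2.

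Library totals ran from 434598 to 12140005 counts. The lowest belonged to fulvestrant replicate 4, where the median region had 3 counts, 52 regions had none, and 66.9% of counts fell in open peaks against 80.4% to 85.8% elsewhere. Starved vehicle replicate 3 was next, with 2422981 counts. Within 50 kb of luminal marker genes 108 of 191 tested peaks were open, against 45 of 108 near basal or mesenchymal markers and 28 of 65 near blood markers. Within 10 kb the counts were 80 of 135, 23 of 57 and 14 of 25, so luminal and blood markers were close there. Of all 156745 tested peaks, 71450 were open. The vehicle libraries of complete medium replicates 3 and 4 carry conflicting labels, with DMSO in title and description and fulvestrant in the treatment entry. They were used as vehicle.

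In complete medium with vehicle the regions were centred near their level after estradiol, with single regions differing in both directions. The medians of the region means were 14.9 CPM in complete vehicle and 14.3 CPM with estradiol. The complete vehicle mean was at or above the estradiol mean in 194 regions and below it in 183, within 1.5-fold in 259 (68.7%), and the median ratio was 1.03. By edgeR at an adjusted p of 0.05, 92 regions (24.4%) were higher and 73 (19.4%) lower in complete vehicle than with estradiol, against 7.24% and 9.39% of all tested peaks. In the same fit 319 regions (84.6%) were higher and 2 lower in complete than in starved vehicle, against 7.93% and 9.91% of all tested peaks, and the median log2 difference was 1.27. The 4 complete libraries lay above the 4 starved ones in 314, against 8.03% of tested peaks. These comparisons share libraries with the rule, so they are descriptions. Days in medium and serum differ between the starved and complete groups, as does treatment against the estradiol group, and these cannot be told apart.

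The ratio of complete vehicle to estradiol ran from 0.354 to 2.79. A peak 588 kb from DTWD2 was highest, with 8.99, 7.93, 11.1 and 13.2 CPM under estradiol and 28.7, 28.3, 27.8 and 30.5 in complete vehicle. A peak inside AFF3, a gene of a transcription elongation factor family, had 6.95, 8.55, 11.5 and 11.5 and 25.1, 24.3, 22.2 and 24.3. A peak 145 kb from NRIP1, which encodes a nuclear receptor corepressor, had 18.5, 17.8, 17.9 and 16.6 and 48.6, 42.7, 43.7 and 41.4. In these 3 regions complete medium stood more than 2-fold above estradiol with no overlap between libraries, and 19 regions in all reached 2-fold. At the other end 17 regions were at least 2-fold lower in complete vehicle. The lowest ratio was at a peak 43.5 kb from OSBPL3, with 13.3, 18.6, 9.06 and 9.20 under estradiol and 5.51, 6.31, 3.42 and 2.53 in complete vehicle. A peak near TOB1, an antiproliferative gene, had 8.99, 12.9, 4.95 and 10.5 in starved vehicle, 18.2, 15.7, 16.8 and 17.8 under estradiol and 5.61, 8.62, 6.85 and 3.65 in complete vehicle, with a complete vehicle mean under the starved one. The means of 12 regions lay in that order. A peak beside the luminal keratin genes KRT18 and KRT8 had means of 7.22, 14.6 and 7.31 CPM in that order.

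**Figure D2:**
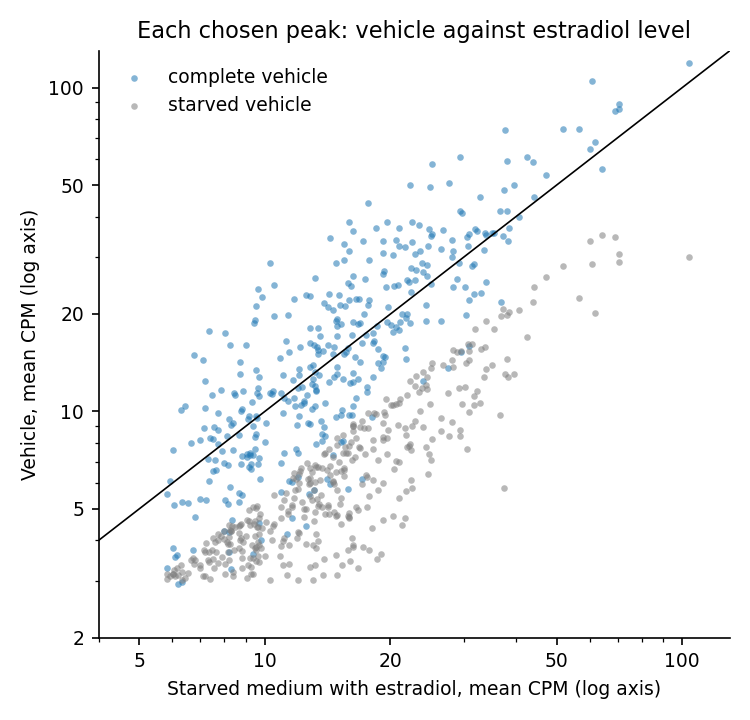
Mean CPM of each of the 377 regions in complete vehicle (blue) and starved vehicle (grey) against its mean under estradiol, on log axes with the line of equality. The complete vehicle points scatter around the line (194 at or above, 183 below), while the rule keeps the starved vehicle points under it.

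Under fulvestrant, accessibility of the regions leaned lower without any single region passing the test. None of the 377 was called lower or higher against complete vehicle by edgeR at an adjusted p of 0.05 (all tested peaks 0% and 0%; smallest adjusted p among the regions 1.00), and DESeq2 also called 0. At an unadjusted p under 0.05, edgeR had 85 regions (22.5%) lower and 0 higher, against 2.03% and 1.93% of the 156745 tested peaks. At that p DESeq2 had 84 lower and 0 higher, against 1.33% and 1.74%. All 4 fulvestrant libraries were below all 4 vehicle libraries in 58 regions (15.4%), against 1.39% of tested peaks. The median log2 fold change was −0.17 (quartiles −0.30 and −0.06), against −0.03 for other open peaks and −0.12 for the peaks below 3 CPM with the same estradiol ratio. It was below 0 in 313 regions (83.0%), against 56.0% of other open peaks and 63.2% of those peaks below 3 CPM. Of the latter, 1222 in the fit, 9.08% were lower by edgeR at an unadjusted p under 0.05. In 4.17% of them all 4 fulvestrant libraries lay below all 4 vehicle libraries. Fulvestrant means exceeded starved vehicle means in 345 regions (91.5%). The starved vehicle level was part of the rule and the medium differs between these groups, so this count is a description only. It was not taken for other peaks. With a term for the set of replicates (1 and 2, or 3 and 4), 1 region was called lower, against 0.00255% of tested peaks. It lay 125 kb from STC2, the stanniocalcin 2 gene (−0.64, SE 0.12, edgeR adjusted p = 0.0227), and was picked out after its values were seen.

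**Figure D3:**
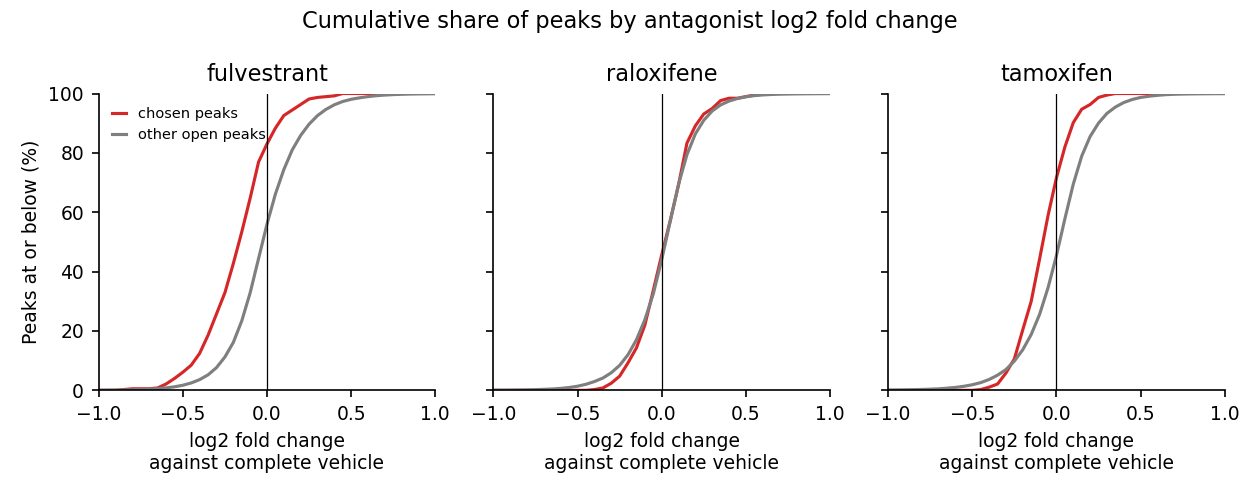
Cumulative percentage of the 377 regions (red) and of the 71073 other open peaks (grey) by log2 fold change against complete vehicle for fulvestrant, raloxifene and tamoxifen. The red curve lies to the left for fulvestrant (83.0% against 56.0% below 0) and for tamoxifen (71.6% against 45.4%), and on the grey curve for raloxifene (45.6% against 44.0%).

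Under raloxifene the regions were centred near the vehicle level. No region was called by edgeR (all tested peaks 0% lower and 0.000638% higher). At an unadjusted p under 0.05, edgeR had 3 lower and 9 higher, against 2.15% and 1.66% of tested peaks. DESeq2, which called 0, had 1 and 6, against 1.40% and 0.910%. The 4 raloxifene libraries lay below vehicle in 7 regions (1.86%), against 1.54%. The median log2 fold change was 0.02, the same as in other open peaks. It was −0.02 without raloxifene replicate 1 and −0.01 with offsets that follow peak height (loess) or without both vehicle libraries with conflicting labels. With tamoxifen 0 regions were called by edgeR or DESeq2 (all tested peaks 0% and 0%). At an unadjusted p under 0.05, 11 regions were lower and 1 higher by edgeR, against 2.2% and 1.93%. By DESeq2 4 were lower and 0 higher, against 1.57% and 1.11%. The 4 tamoxifen libraries lay below vehicle in 8 regions (2.12%), against 1.54%. The median was −0.08, against 0.02 in other open peaks and −0.09 in the peaks below 3 CPM with the same estradiol ratio. It was below 0 in 270 regions (71.6%), against 45.4% and 61.3%. Leaving out tamoxifen replicate 3 or 4 gave −0.03 and −0.04, leaving out replicate 1 or 2 gave −0.14 each, and leaving out vehicle replicate 1 gave −0.05.

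The antagonists were also compared with each other at the same dose and time. Fulvestrant against raloxifene gave 1 called region, the ZMIZ1 peak, lower with fulvestrant, and it was the only peak called of all tested (0.000638% lower and 0% higher). At an unadjusted p under 0.05, 94 regions were lower and 0 higher, against 2.66% and 2.5%, with a median of −0.20. Fulvestrant against tamoxifen gave 0 called regions (0% and 0%), with 45 lower and 3 higher at an unadjusted p under 0.05, against 2.69% and 2.58%, and a median of −0.11. Raloxifene against tamoxifen gave 0 called regions (0% and 0%), with 0 lower and 26 higher unadjusted, against 2.07% and 1.85%, and a median of 0.10. In the order given, the medians of other open peaks were −0.05, −0.04 and 0.00. Those of the peaks below 3 CPM with the same estradiol ratio were −0.11, −0.03 and 0.10. DESeq2 called 0 regions in these 3 comparisons and had, unadjusted, 87 lower and 0 higher, 43 lower and 1 higher, and 0 lower and 12 higher. Of all tested peaks it had 1.77% lower and 2.71% higher, 1.77% and 2.81%, and 1.26% and 1.19%. With the set term edgeR called 3 regions between fulvestrant and raloxifene (0.00447% of tested peaks), and with the replicate number as a block 2 (0.00383%), all lower with fulvestrant. Between fulvestrant and tamoxifen both fits called 1 region, the NYAP2 peak, lower with fulvestrant (adjusted p = 0.00682 with the set term and 0.0256 with the block, against 0.00191% and 0.00128% of tested peaks called). Without fulvestrant replicate 3, the unadjusted count was 46 lower against raloxifene (2.44% of tested peaks), with a median of −0.12 (other open peaks −0.03). Against tamoxifen 18 were lower and 17 higher (2.7% and 2.41%), with a median of −0.01 (other open peaks −0.03).

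Relative to vehicle, the regions were lower under fulvestrant in replicates 3 and 4 than in replicates 1 and 2. In the fit of all libraries the median was −0.17, against −0.08 without fulvestrant replicate 3 and −0.15 without both shallow libraries. In a fit of replicates 3 and 4 only, the median log2 fold change with fulvestrant was −0.63 (other open peaks −0.22), 227 regions (60.2%) were lower at an unadjusted p under 0.05 (other open peaks 8.71%, all tested peaks 5.07%), and edgeR called 9 (2.39%) lower and 0 higher, against 15 (0.00933%) and 73 (0.0454%) of 160761 tested peaks. In replicates 1 and 2 the median was −0.06 (other open peaks 0.04), 34 (9.02%) were lower (other open peaks 1.50%, all tested peaks 2.71%) and 0 were called. For tamoxifen the medians were −0.18 in replicates 3 and 4 (other open peaks −0.01) and 0.03 in replicates 1 and 2 (other open peaks 0.04), and for raloxifene −0.03 and 0.04. Both fulvestrant libraries were below both vehicle libraries in 271 regions (71.9%) of replicates 3 and 4, against 28.1% of other open peaks, and in 124 (32.9%) of replicates 1 and 2, against 14.3%. For tamoxifen this held in 177 (46.9%, against 18.0%) and 64 (17.0%, against 16.7%).

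Depth moved with the fulvestrant values: totals were 11262408 and 8553131 counts in replicates 1 and 2, and 5448411 and 434598 in replicates 3 and 4. The tamoxifen totals of replicates 3 and 4, 7489274 and 9871575, were as high as those of replicates 1 and 2, 8065848 and 6725045. Without fulvestrant replicate 4, its libraries lay below vehicle in 64 regions (17.0%), against 2.41% of tested peaks. With both shallow libraries left out, 82 regions (21.8%) were lower at an unadjusted p under 0.05, against 2.21% of tested peaks, and the median was −0.15 (other open peaks −0.01). Without fulvestrant replicate 3, 44 (11.7%) were lower, against 2.47%, and the median was −0.08 (other open peaks −0.01). Without replicate 1 or 2 the medians were −0.26 and −0.26, and without replicate 1 the libraries lay below vehicle in 88 regions (23.3%), against 3.37% of tested peaks. Without both vehicle libraries with conflicting labels 55 (14.6%) were lower, against 1.73%, the median was −0.19 (other open peaks −0.01), and the libraries lay below vehicle in 105 regions (27.9%), against 5.14%. The labels give no date or batch for the replicate numbers, and the part played by either was not tested.

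**Figure D4:**
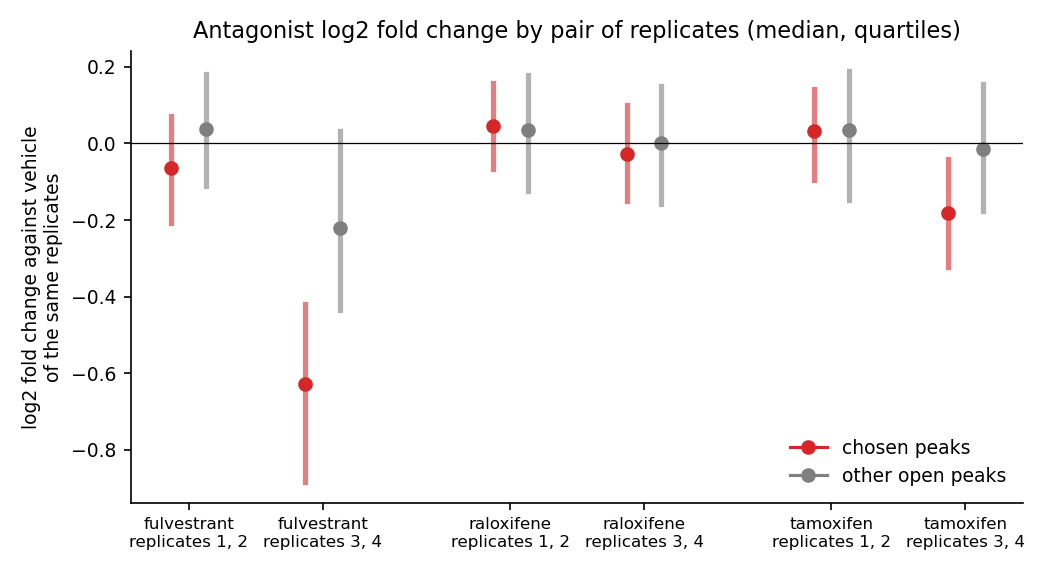
Median (points) and quartiles (bars) of the log2 fold change against vehicle of the same replicates, for the 377 regions (red) and other open peaks (grey). With replicates 3 and 4 the regions' median is −0.63 for fulvestrant and −0.18 for tamoxifen, and with replicates 1 and 2 it is −0.06 and 0.03.

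At the ZMIZ1 peak, complete medium gave 50.2, 44.8, 47.04 and 51.7 CPM with vehicle, 40.6, 40.6, 29.9 and 20.7 with fulvestrant, 54.9, 57.01, 53.1 and 56.6 with raloxifene and 49.3, 42.97, 45.9 and 42.3 with tamoxifen. All raloxifene libraries lay above all vehicle libraries, and all fulvestrant libraries below them. The log2 fold change of fulvestrant against raloxifene was -0.61 (SE 0.11, edgeR adjusted p = 0.041). That call was kept in 9 of 21 other settings of the fit, with adjusted p from 0.000247 to 0.999. It was lost without fulvestrant replicate 1 or 3 or any 1 of the raloxifene replicates, among others, and the value was below 0 in all 21 (−1.07 to −0.47). Against vehicle it was -0.40 for fulvestrant (SE 0.11) and 0.21 for raloxifene (SE 0.10), neither called.

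The smallest p against vehicle under fulvestrant belonged to a peak 71.7 kb from SNRK, a kinase gene, with 8.01, 9.26, 8.31 and 6.74 CPM with vehicle and 5.33, 4.33, 2.75 and 4.60 with fulvestrant, and a log2 fold change of -0.90 (SE 0.21). The fulvestrant libraries were all lower, near the starved vehicle values of 5.99, 5.12, 4.54 and 4.59. Next came a peak inside the cell adhesion gene CADM1, with 32.4, 27.7, 26.3 and 33.6 with vehicle and 21.6, 23.6, 18.7 and 20.7 with fulvestrant (-0.49, SE 0.12). There replicates 1 and 2 were close to replicates 3 and 4. The peak inside HIVEP3, a zinc finger gene, had 25.9, 22.5, 24.2 and 26.8 and 18.2, 18.8, 13.8 and 2.30 (-0.57, SE 0.15). The peak inside NYAP2 had 21.4, 24.1, 20.7 and 18.8 and 15.2, 16.02, 10.3 and 6.90 (-0.61, SE 0.16). All 4 regions had non-overlapping groups, and their edgeR adjusted p against vehicle was 1.00.

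The smallest p under raloxifene belonged to a higher value, at a peak 0.314 kb from WDR45B (0.54, SE 0.13). Its values were 23.2, 17.2, 16.8 and 17.4 CPM with vehicle, 30.2, 27.97, 22.97 and 25.99 with raloxifene and 21.8, 20.6, 17.4 and 6.90 with fulvestrant, with raloxifene replicate 3 just under the highest vehicle library. Under tamoxifen the smallest p belonged to lower values, at a peak inside the transcription factor gene MYB (-0.42, SE 0.16) and one 233 kb from TOMM20 (-0.40, SE 0.17). None of these was called; their edgeR adjusted p was 1.00.

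Within 50 kb of 14 of 30 listed genes known to be induced by estrogen lay 21 regions, 6.29% of the 334 open peaks there, against 0.528% of all open peaks. Under fulvestrant 20 of the 21 were below 0, 8 at an unadjusted p under 0.05, and 0 were called, with a median of −0.22. Of all 377 regions 83.0% were below 0 and 22.5% lower at that p, and of all tested peaks 51.5% and 2.03%. The raloxifene and tamoxifen medians were −0.03 and −0.06.

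The region inside PGR, which encodes the progesterone receptor, had 13.4, 9.76, 14.9 and 13.1 CPM in starved vehicle and 37.6, 37.9, 35.7 and 41.6 with estradiol. In complete medium it had 30.8, 34.5, 33.3 and 35.4 with vehicle, 31.2, 29.9, 18.9 and 4.60 with fulvestrant, 35.5, 35.3, 33.01 and 30.6 with raloxifene and 34.5, 33.2, 30.3 and 33.9 with tamoxifen. Fulvestrant replicate 1 lay inside the vehicle range, replicate 2 just under it and replicates 3 and 4 far below (-0.32, SE 0.13). In replicates 3 and 4 alone it was called lower by edgeR (−1.10, adjusted p = 0.0496). In SIAH2, a ubiquitin ligase gene, the values were 17.3, 16.9, 21.1 and 20.8 with vehicle and 15.8, 15.9, 11.01 and 4.60 with fulvestrant (-0.41, SE 0.14), with no overlap. In IGFBP4, which encodes an insulin-like growth factor binding protein, they were 53.02, 37.2, 40.2 and 36.1 and 39.2, 38.00, 26.2 and 25.3 (-0.28, SE 0.15). In RARA they were 93.2, 85.2, 82.7 and 83.6 and 82.8, 78.6, 66.4 and 46.02 (-0.22, SE 0.10), with fulvestrant replicate 1 just inside the vehicle range.

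GREB1 encodes an estrogen-induced coregulator of the receptor. The 4 regions of its run differed in level, while differences between them in response were not tested. Their starved vehicle means, in genome order, were 5.82, 10.7, 9.10 and 3.71 CPM, and their complete vehicle means 33.4, 45.9, 24.6 and 10.2. The log2 fold changes with fulvestrant were -0.20, -0.11, -0.34 and -0.41 (SE 0.13, 0.11, 0.13 and 0.19). In replicates 1 and 2 alone those of the first and second were above 0 (0.02 and 0.06). The second region had 46.9, 43.8, 45.3 and 47.5 with vehicle and 45.6, 48.3, 35.8 and 23.01 with fulvestrant, and its tamoxifen value was 0.00 (SE 0.11).

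Other listed genes had fewer regions. Luminal and pioneer factor genes had 6 regions near 5 of 18 genes, 2.02% of their open peaks. A region near MLPH, the melanophilin gene, went from 4.75 CPM in starved vehicle to 14.8 with estradiol and 28.7 in complete vehicle. A region near ESR1, the receptor's own gene, went from 8.28 to 14.9 and 19.3, and 1 near GRHL2 from 7.40 to 24.7 and 36.7. Another region, inside MLPH, went from 5.41 to 11.8 and 11.0, and another, 40.4 kb from ESR1, from 7.22 to 16.5 and 14.7. The last of the 6 is the keratin region given above. Receptor coregulator genes had 5 of 168 open peaks, all at GREB1. Growth factor and kinase genes had 3 regions, in the receptor tyrosine kinase genes EGFR and ERBB4, 1.80% of open peaks. In ERBB4 the highest had 5.53, 10.5 and 24.6 CPM in the same order. Glucocorticoid and progestin responsive genes had 1, 46.8 kb from the endothelin gene EDN1, with 22.2, 23.2, 25.6 and 26.1 with vehicle and 17.3, 16.4, 24.6 and 13.8 with fulvestrant. Of 104 open peaks near housekeeping genes and 28 near blood markers none was chosen, and of 45 near basal or mesenchymal markers 1 was, near TP63 (2.22%). Of all open peaks 0.528% were chosen, so these counts are too small to read as a difference between lists.

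**Figure D5:**
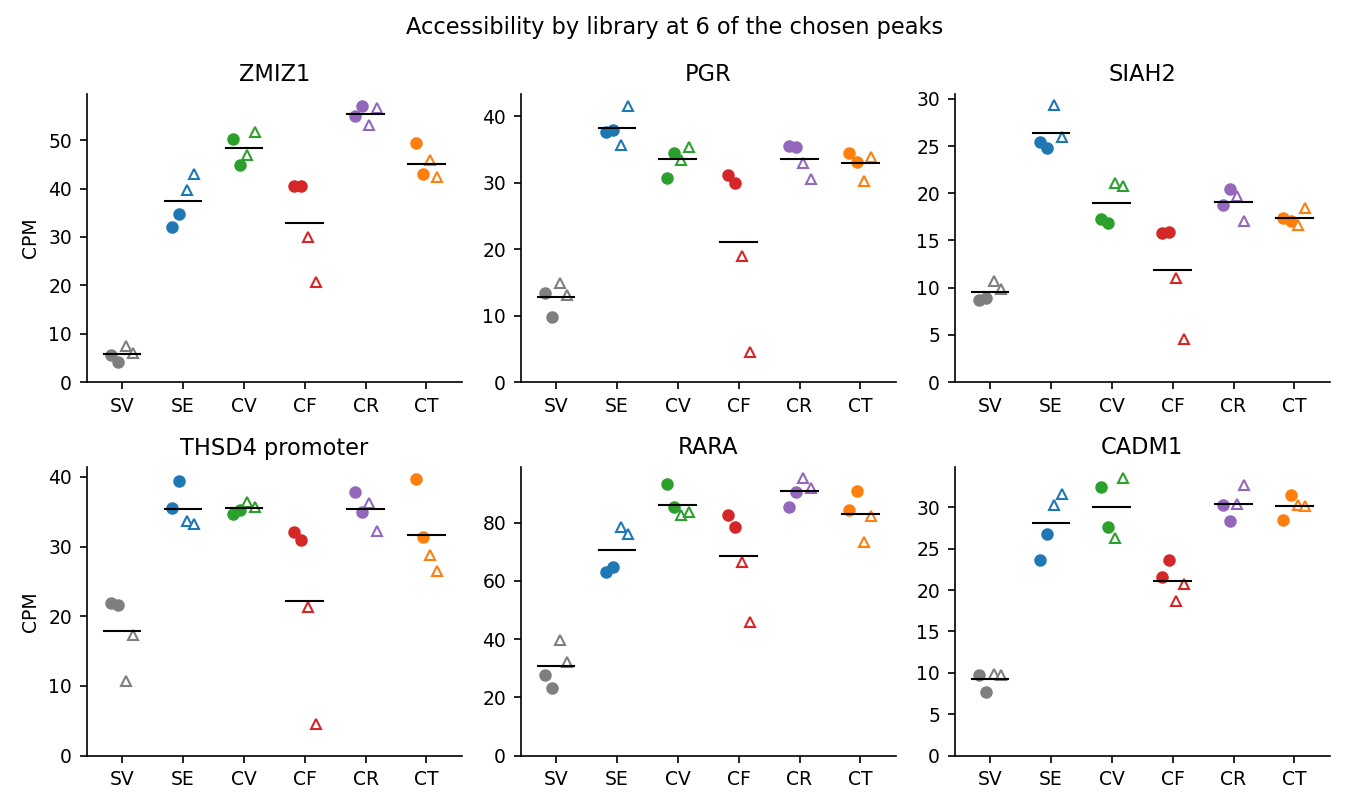
CPM of each library at 6 regions, in starved vehicle (SV), starved with estradiol (SE), complete vehicle (CV) and complete with fulvestrant (CF), raloxifene (CR) or tamoxifen (CT), with filled circles for replicates 1 and 2, open triangles for 3 and 4 and a line at the mean. At 5 regions fulvestrant replicates 3 and 4 lie below replicates 1 and 2, and at CADM1 all 4 lie between 18.7 and 23.6 CPM.

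Over the regions of low, middle and high estradiol ratio (126, 125 and 126), the medians were −0.13, −0.17 and −0.20, and by starved vehicle level −0.18, −0.15 and −0.19. Across the 377 regions, estradiol ratio and fulvestrant log2 fold change had a Pearson r of −0.09 and a Spearman rho of −0.13. The estradiol and complete vehicle levels (log2) had r = 0.83 and rho = 0.81. Both are descriptions across regions measured in the same libraries, and regions are not replicates.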

How the data were processed

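ATAC-seq of T47D cells gave 24 libraries, grouped by title. Per the submitters' processing notes, cutadapt 1.8.1, Bowtie2 2.4.4 and SAMtools 1.9 were used with hg38. Peak caller, counting tool, duplicate handling and Tn5 shift: not given in the sources used here. From these reads the authors deposited raw counts per peak in 1 peak set, with no normalization, and whether starts count from 0 or 1 is not stated.

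The rule used CPM from column totals. Tests came from 1 edgeR 4.0.16 fit (R 4.3.3) of 6 group means over all 24 libraries, with filterByExpr (minimum count 10, minimum total 15, 156745 peaks kept, among them all 377 regions), TMM scaling, the two-sided quasi-likelihood test (robust, legacy=FALSE) and Benjamini-Hochberg adjustment over all tested peaks at 0.05. The fit weighs libraries by depth. It was tested on simulated data with a dispersion set at 0.05, comparing fulvestrant with vehicle at 50 changed peaks per fold. At an adjusted p under 0.05 it recovered 0% of 1.25-fold and 0% of 1.5-fold changes. For 2-fold and 4-fold changes it recovered 20% and 98%. In data of that dispersion, a count of 0 called peaks says little about changes under 2-fold. The simulation was not matched to the chosen regions, so recovery at them was not measured. In the real fit the ZMIZ1 peak was called between fulvestrant and raloxifene at a log2 fold change of −0.61. A count of 0 called regions still does not show that none changed. DESeq2 1.42.0 and other scalings, filters, sets of replicates and left-out libraries were alternatives. No 2 libraries of a group were identical, and all 36 such pairs differed by more than counting noise (chi-square per peak 1.72 to 3.99), so none was merged as a duplicate. Gene intervals (20056 coding genes), starts and sequences came from RefSeq tables on GRCh38.p14. Distances run to the nearest edge of a gene. Transcription starts on chromosome 8 were not used here, nor were sequences of the other peaks.

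The regions, gene lists and tests were chosen with earlier results of these data known. Named regions were the 8 most open in starved vehicle, the 8 with the largest ratio, the highest near each listed gene, those called or with the smallest p per antagonist comparison, the 6 highest and lowest ratios of complete vehicle to estradiol, those at the thresholds, up to 8 at promoters, and the densest run, and only some of each are described.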

Additional observations from a re-analysis of the deposited data

Results flagged for a closer look

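In 10 of 120 groups of 4 libraries, at the regions described above with a fold change and for the summed share, 1 library stood apart from the other 3 past Dixon's 95% limit on the gap relative to the group's range. Chance alone flags about 1 in 20 groups. The only one in the shallow fulvestrant replicate 4 was the region near TOMM20, with 2.30 CPM against 11.2 to 12.3.

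Replicate 1 stood high at the WDR45B region in complete vehicle (23.2 CPM, others 16.8 to 17.4) and with estradiol (17.7, others 14.2 to 14.6). With raloxifene it stood high at IGFBP4 (51.0, others 43.7 to 44.4) and near TOMM20 (12.7, others 10.4 to 10.7). Replicate 2 stood high near SNRK with tamoxifen (7.73, others 5.98 to 6.28). It was low in CADM1 (7.74, others 9.77 to 9.91) and in the third region of the GREB1 run (7.02, others 9.70 to 9.91) in starved vehicle, and in NYAP2 with estradiol (10.7, others 16.4 to 17.1). Starved vehicle replicate 4 was high near EDN1 (20.5, others 13.5 to 14.0).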

How the results depend on the processing

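The regions not called lower or higher against vehicle (0 for each antagonist) stayed at 0 in every setting run, leaving out single libraries included, except that fulvestrant had 1 called lower with a term for the set (replicates 1 and 2, or 3 and 4) and 9 in replicates 3 and 4 only. The 85 regions lower with fulvestrant at an unadjusted p under 0.05, against 2.03% of tested peaks, became 133 (35.3%) with that term, against 2.39%. The count was 34 in replicates 1 and 2, 227 in replicates 3 and 4 and 55 without both vehicle libraries with conflicting labels. With a starved minimum of 5 or 10 CPM the rule chose only 211 and 70 regions, of which 50 and 20 were lower. Leaving out 1 library gave 44 to 111 of the 377. The median log2 fold change with fulvestrant was −0.63 in replicates 3 and 4 and ranged from −0.26 to −0.08 with 1 library left out. That with tamoxifen was 0.033 in replicates 1 and 2.

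Between fulvestrant and raloxifene, 1 region was called. The count was 0 without the low-count filter, with DESeq2, with the older edgeR estimate, with only the groups compared, in replicates 1 and 2, without the conflicting vehicle libraries and with a starved minimum of 10 CPM. The count was 3 with the set term. In replicates 3 and 4 it was 12 (3.18%), all lower with fulvestrant, against 0.0124% lower and 0.0697% higher of all tested peaks. With 1 library left out it was 0 to 1, and 0 without fulvestrant replicate 1 or 3 or any raloxifene replicate. Between fulvestrant and tamoxifen, 1 region was called with the set term and 1 in replicates 3 and 4. The latter was lower with fulvestrant, against 0.00809% lower and 0.167% higher of all tested peaks. At 2 GREB1 regions the fulvestrant value turned to 0.020 and 0.064 in replicates 1 and 2.

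With the replicate number as a block, 2 regions were called between fulvestrant and raloxifene and 1 between fulvestrant and tamoxifen, and no other count of calls moved by over 1.5 times. The deviations of same-numbered libraries from their group means had a median correlation of 0.06 (−0.12 to 0.16, 15 of 60 pairs over 0.1), those of differently numbered libraries within a set 0.05, and those between sets −0.06. In these data 16 of 24 libraries correlated best with their own number, a hint of shared structure. The numbers were not taken to pair samples, because the labels name no shared source and not every pair was over 0.1.

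The median of complete against starved vehicle, 1.27, was 1.35 with the set term, 1.32 in replicates 1 and 2, and 1.23 to 1.30 with 1 library left out. That of estradiol, 1.18, was 1.24 in replicates 3 and 4. The rule chose 211 regions at 5 CPM, 70 at 10 CPM, 609 at a log2 ratio of 0.6 and 232 at 1. Leaving out 1 starved library gave 362 to 424, which kept 308 to 365 of the 377. The causes of these shifts were not tested. Leaving out both shallow libraries, and all alternatives for regions below every vehicle library, were chosen after seeing the data. Fulvestrant replicate 4, with 3 counts in the median region, adds little to each fitted value.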
